A study of Homo sapiens with 6 samples.

Results

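Genes that serve as markers of ovarian carcinoma and of the Mullerian lineage were followed in the human cell line SKOV3, which was derived from an ovarian carcinoma and is in wide use: MUC16, MSLN, PAX8, WT1, WFDC2, ESR1, PGR, FOLR1, MUC1 and SOX17. The 10 genes were chosen by name, and all 10 were found among the 58735 Ensembl gene identifiers by matching these to symbols. RNA sequencing covered 3 libraries called TIPE2 and 3 called Vector. TIPE2 cells were SKOV3 cells given a lentivirus with human TIPE2 cDNA (gene TNFAIP8L2) and kept under puromycin to obtain stable expression, and Vector cells were SKOV3 cells given the empty vector; the labels describe the puromycin step for TIPE2 cells only. The labels number the libraries of a group as biological replicates but do not tell how the cultures were set up, so the p-values reflect the spread between these libraries, which may be technical. The labels name neither the promoter that drives TIPE2 nor whether the cells were kept as a pool or a clone.

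The epithelium of the fallopian tube, uterus and upper vagina comes from the Mullerian ducts, and most ovarian carcinomas carry features of this epithelium. Lineage transcription factors such as PAX8 and SOX17 mark its secretory cells and persist in many tumours, and the estrogen and progesterone receptors ESR1 and PGR mark hormone-responsive tissue. Several of the other genes encode proteins of the cell surface or of secretions that serve as serum markers or as targets of antibodies in ovarian cancer. Which of these markers a cell line keeps differs between lines.

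Recovered fragments assigned to genes came to between 15983317 and 18583473 per library. TNFAIP8L2 had 58.4, 47.2 and 48.8 FPKM (fragments scaled to exon length and to library size) in the TIPE2 libraries, against 0, 0.0476 and 0 FPKM in the Vector libraries, so every library matched its label. All 7 genes listed as markers of an epithelial carcinoma cell were detected in every library, and ERBB2, the receptor tyrosine kinase HER2, had 702 ± 150 FPKM in TIPE2 cells, against 534 ± 131 FPKM in Vector cells (SD, n = 3 each). The keratin KRT7 had 151 ± 13.7 FPKM in TIPE2 cells, against 309 ± 71.8 FPKM in Vector cells without overlap (limma, adjusted p = 0.343). Markers of immune cells summed to between 0.0658 and 0.418 FPKM over 5 genes in the TIPE2 libraries, against 0.0700 to 0.195 FPKM in the Vector libraries. The endothelial gene CDH5, the T cell gene CD3E and the germ cell genes DDX4, DAZL, LIN28A and DPPA4 were listed at 0 in all 6 libraries. Other genes of such lists were present. The 5 endothelial genes summed to between 0.813 and 1.07 FPKM in the TIPE2 libraries, against 0.528 to 0.688 FPKM in the Vector libraries, with PECAM1 and KDR as the main part. The 5 fibroblast genes, led by COL1A2, summed to between 1.10 and 5.34 FPKM, against 1.69 to 3.55 FPKM. The germ cell list rested on POU5F1, with 2.61, 3.87 and 3.54 FPKM in the TIPE2 libraries, all below the 5.55, 3.97 and 4.27 FPKM in the Vector libraries (limma, adjusted p = 0.827). The granulosa list rested on AMH, with 10.9 ± 0.325 FPKM in TIPE2 cells, against 13.3 ± 4.22 FPKM in Vector cells, and the ciliated cell list on CAPS, with 6.02 ± 1.26 FPKM against 4.80 ± 1.15 FPKM. The part of these genes in the marker values was not tested.

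The upstream sequences of 3 of the markers, PAX8, WFDC2 and MUC1, are shown because of their orders over the libraries. Within each group PAX8 and MUC1 took opposite orders. WFDC2, like MUC1, was lowest in TIPE2 3, but its lowest Vector library was Vector 2, against Vector 3 for MUC1. These sequences were chosen after the values were seen. They are RefSeq sequences of build GRCh38.p14, read 5′ to 3′ on the strand of the gene, from 250 bases before a RefSeq start up to the base before the gene in GENCODE 29. Capitals mark matches, on either strand, to the GC box with the letters GGGCGG, to the CCAAT box and to the TATA box with the letters TATAAA.
PAX8, chr2:113278951-113279171, minus strand: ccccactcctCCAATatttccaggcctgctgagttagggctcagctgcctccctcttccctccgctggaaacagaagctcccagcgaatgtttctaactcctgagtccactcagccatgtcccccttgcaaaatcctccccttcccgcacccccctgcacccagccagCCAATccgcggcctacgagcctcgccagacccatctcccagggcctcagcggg
WFDC2, chr20:45469503-45469705, plus strand: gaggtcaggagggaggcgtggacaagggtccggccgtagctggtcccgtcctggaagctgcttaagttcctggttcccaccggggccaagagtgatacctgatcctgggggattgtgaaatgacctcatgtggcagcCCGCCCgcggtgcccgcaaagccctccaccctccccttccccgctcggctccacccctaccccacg
MUC1, chr1:155192917-155193165, minus strand: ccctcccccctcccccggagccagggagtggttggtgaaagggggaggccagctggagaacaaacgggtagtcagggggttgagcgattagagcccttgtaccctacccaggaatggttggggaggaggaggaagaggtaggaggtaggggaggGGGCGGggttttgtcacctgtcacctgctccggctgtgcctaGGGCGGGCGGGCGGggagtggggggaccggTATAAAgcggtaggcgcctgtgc

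The 250 bases before the PAX8 start held 2 CCAAT boxes and none of the other motifs. Those of WFDC2 held 1 GC box, on the opposite strand. Those of MUC1 held 4 GC boxes, of which the 3 nearest the start overlap, and 1 TATA box. Of 35116 RefSeq promoter windows of the same length, 42.6% held a GC box, 32.0% a CCAAT box and 10.7% a TATA box. A match of letters is a description of the window and not a sign of binding.

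The 10 markers ranged from genes in the upper part of the expressed range to genes with a handful of fragments. FPKM is per merged exon length of GENCODE 29, so a gene with long untranslated exons or many isoforms can have a lower value than its abundance per transcript. By mean FPKM the order in TIPE2 cells was SOX17, PAX8, FOLR1, MSLN, ESR1, MUC1, WFDC2, WT1, PGR and MUC16. In Vector cells MUC1 stood before ESR1, and the order was otherwise as in TIPE2 cells. The ranges of SOX17 and PAX8 overlapped in both groups, as did those of PAX8 and FOLR1 and those of neighbours among ESR1, MUC1 and WFDC2. FOLR1 and MSLN were apart in TIPE2 cells and overlapped in Vector cells.

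**Figure D1:**
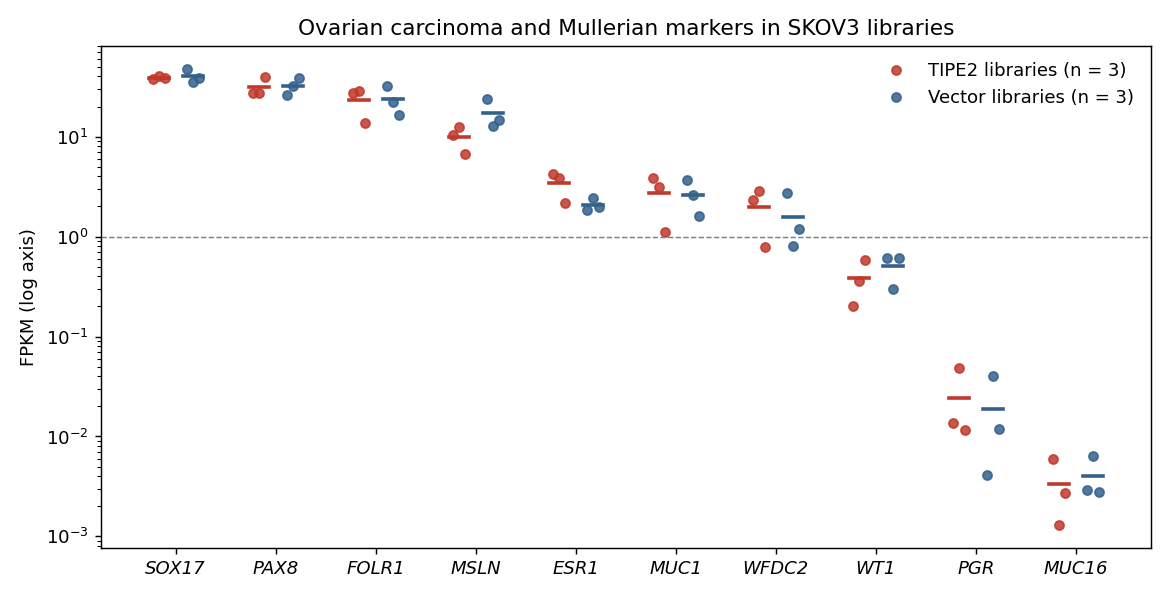
FPKM on a log axis for the 10 markers, with 3 TIPE2 libraries left and 3 Vector libraries right for each gene; points are libraries, short bars are group means and the dashed line is 1 FPKM. SOX17, PAX8, FOLR1 and MSLN lie above 5 FPKM in all libraries, whereas PGR and MUC16 lie below 0.1 FPKM in all of them.

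No marker passed the test between TIPE2 and Vector cells. In a limma fit to log2(FPKM + 1) of the 12538 genes that averaged 1 FPKM or more, 0 of the 7 markers tested had a Benjamini-Hochberg adjusted p under 0.05, where 0.0239% of all genes tested had one. At an unadjusted p under 0.05 there were 2 markers, MSLN and ESR1, with limma as with limma-voom on recovered fragments, and voom also called 0 of the 7. In the limma fit 5.99% of all genes tested fell under that unadjusted value. The groups did not overlap for 1 of the 10 markers, MSLN, which is among the 7 tested. Of all genes tested 11.5% did not overlap, with 6.18% higher and 5.31% lower in TIPE2 cells. Markers that averaged under 1 FPKM are not part of that share. The median log2 difference of the 7 was -0.050, beside -0.0056 for all genes tested. In bulk RNA, fewer cells with a marker and less RNA per cell cannot be told apart. A p that misses the threshold does not show that a marker was alike in both groups, and the interval of each difference is given with it.

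**Figure D2:**
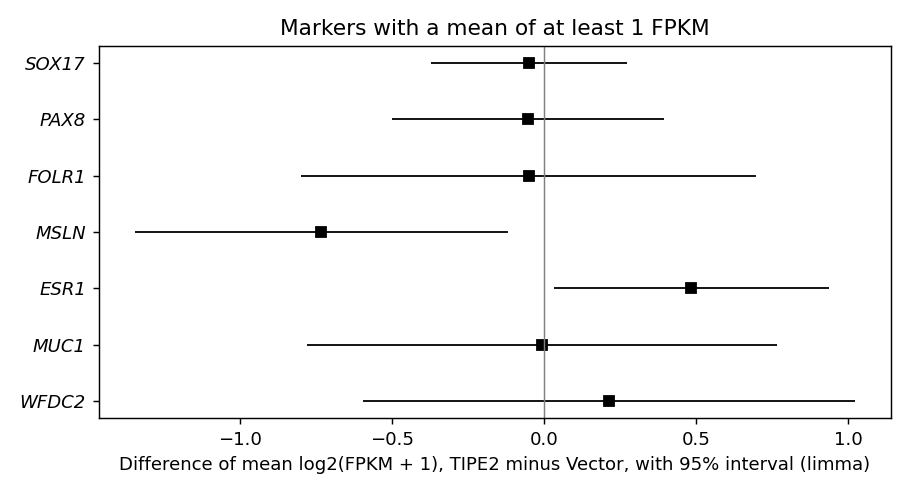
Difference of mean log2(FPKM + 1), TIPE2 minus Vector, for the 7 markers tested; squares are limma estimates and lines their 95% intervals. The intervals of MSLN (-1.35 to -0.12) and ESR1 (0.032 to 0.94) leave out 0, without adjustment for the number of genes, and the other 5 include it.

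Among the lineage transcription factors, SOX17 and PAX8 were the most abundant of the markers. SOX17 (ENSG00000164736; GRCh38 chromosome 8, 54457935 to 54460888, plus strand) encodes an SRY-related factor of endoderm, vessels and Mullerian epithelium. It had 38.0, 40.0 and 38.3 FPKM in the TIPE2 libraries, against 47.8, 35.4 and 38.3 FPKM in the Vector libraries. SOX17 overlapped between the groups: all 3 TIPE2 values lay within the range of the Vector values, and Vector 1 was the highest library. The log2 difference was -0.051 with a standard error of 0.14 and a 95% interval of -0.37 to 0.27 (limma, adjusted p = 0.934), and its sign turned with quantile normalization (0.026). SOX17 exceeded 90.8% of the genes tested in mean level, and its spread over the 6 libraries, 1.35-fold from highest to lowest, was the smallest of the 7 markers tested.

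PAX8 (ENSG00000125618; chromosome 2, 113215997 to 113278950, minus strand) is a paired-box factor of thyroid, kidney and Mullerian epithelium, and is used in pathology to trace carcinomas to these tissues. Its values were 27.1, 27.2 and 39.1 FPKM in TIPE2 1, 2 and 3, against 26.2, 31.9 and 38.6 FPKM in Vector 1, 2 and 3. TIPE2 3 and Vector 3 were the 2 highest libraries, and the groups overlapped over nearly their whole range. The log2 difference was -0.054 (standard error 0.19, 95% interval -0.50 to 0.39, limma, adjusted p = 0.947), and it was 0.0027 with quantile normalization. The antisense gene PAX8-AS1 shares 685 exon bases with PAX8, or 9.26% of the exon length of PAX8, and without a stated use of strand the reads of these bases cannot be told apart. PAX8-AS1 had 0.803 ± 0.182 FPKM in TIPE2 cells, against 1.03 ± 0.448 FPKM in Vector cells (SD, n = 3 each). Its fragments summed to 736 in the TIPE2 and 894 in the Vector libraries, against 12195 and 11947 fragments of PAX8.

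WT1 (ENSG00000184937; chromosome 11, 32387775 to 32435630, minus strand) encodes a zinc-finger factor of kidney, gonad and mesothelium, and is a marker of serous carcinomas. It was low, with 0.203, 0.362 and 0.583 FPKM in the TIPE2 libraries, against 0.616, 0.300 and 0.610 FPKM in the Vector libraries. These are 16, 26 and 40 fragments against 40, 22 and 41, so the groups overlapped. The ratio of summed fragment rates, TIPE2 over Vector, was 0.745 (exact 95% interval 0.551 to 1.01, for counting error alone). WT1 was below the filter on low values, and the exact two-sided permutation test on log2(FPKM + 1) gave p = 0.5, where 0.1 is the smallest that 3 against 3 libraries allow. Its divergent antisense gene WT1-AS had 1 fragment in the TIPE2 and 7 in the Vector libraries.

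The 2 steroid receptors differed in level. ESR1 (ENSG00000091831; chromosome 6, 151656691 to 152129619, plus strand), the estrogen receptor alpha, had 4.20, 3.85 and 2.17 FPKM in TIPE2 1, 2 and 3, against 1.82, 2.45 and 2.00 FPKM in Vector 1, 2 and 3. TIPE2 1 and TIPE2 2 lay above all Vector libraries, and TIPE2 3 lay below Vector 2. The mean was 3.41 ± 1.08 FPKM in TIPE2 cells, against 2.09 ± 0.324 FPKM in Vector cells (SD, n = 3 each), 1.63-fold as high. On the log2(FPKM + 1) scale, which understates changes of low genes, TIPE2 minus Vector gave 0.48 (standard error 0.20) with an interval of 0.032 to 0.94 (limma, unadjusted p = 0.0389, adjusted p = 0.807). The exact two-sided permutation p was 0.2. Without TIPE2 3, where the groups no longer overlapped, the difference was 0.71 (limma, unadjusted p = 0.00125, adjusted p = 0.154). With the other libraries left out in turn it lay between 0.35 and 0.57, and no adjusted p passed. The unadjusted limma p was then 0.131 without TIPE2 1, 0.119 without TIPE2 2, 0.113 without Vector 1 and 0.0850 without Vector 3. It was 0.0385 without Vector 2, and 0.0550 with all libraries and no filter on low values.

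PGR (ENSG00000082175; chromosome 11, 101029624 to 101130524, minus strand), the progesterone receptor and a classical target of the estrogen receptor, was close to undetected. It had 4, 13 and 3 fragments in the TIPE2 libraries, against 1, 11 and 3 in the Vector libraries, equal to at most 0.0483 FPKM in any library. TIPE2 2 and Vector 2 held most of these fragments. The antisense gene PGR-AS1 shares 812 exon bases with PGR and had 1 fragment in all 6 libraries together. The ratio of summed rates was 1.25 (exact 95% interval 0.608 to 2.62, for counting error alone).

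Other genes of steroid response gave no call. Of 14 estrogen target genes listed, 9 were tested, 5 with a higher and 4 with a lower mean in TIPE2 cells. With limma 0 passed, and 2 had an unadjusted p under 0.05, against 5.99% of all genes tested. The median log2 difference of the 9 was 0.28, beside -0.0056 for all genes tested. The lysosomal protease CTSD had 115 ± 35.2 FPKM in TIPE2 cells, against 94.0 ± 31.4 FPKM in Vector cells. The cyclin CCND1 had 41.1 ± 3.40 FPKM against 60.6 ± 14.8 FPKM, and all 3 TIPE2 libraries lay below all 3 Vector libraries (limma, adjusted p = 0.779). PDZK1, a scaffold protein, had 1.49, 1.48 and 1.52 FPKM in the TIPE2 libraries, against 1.10, 0.746 and 0.568 FPKM in the Vector libraries, with all 3 TIPE2 libraries above all 3 Vector libraries (limma, adjusted p = 0.666). IGFBP4, below the filter on low values, went the other way without overlap. It had 0.402, 0.260 and 0.872 FPKM in the TIPE2 libraries, against 1.18, 1.17 and 1.53 FPKM in the Vector libraries. GREB1 averaged 0.153 FPKM in TIPE2 cells, against 0.0801 FPKM in Vector cells, and TFF1 and TFF3 were above 0 in Vector 1 only. XBP1, a factor of the unfolded protein response, had 33.8 ± 4.64 FPKM against 37.4 ± 3.25 FPKM, and the carbonic anhydrase CA12 had 25.6 ± 8.38 FPKM against 17.6 ± 3.52 FPKM. Of 16 further steroid receptors and coregulators, 12 were tested and 0 passed, with 9 means higher and 3 lower in TIPE2 cells. At an unadjusted limma p under 0.05 there was 1 of the 12, against 5.99% of all genes tested. The groups did not overlap for 2 of the 12 higher and 1 lower in TIPE2 cells, against 6.18% and 5.31% of all genes tested. The membrane-associated PGRMC1 had 109 ± 4.73 FPKM in TIPE2 cells, against 106 ± 16.3 FPKM in Vector cells, its relative PGRMC2 had 18.4 ± 0.875 FPKM against 16.0 ± 1.41 FPKM, and the orphan receptor ESRRA had 15.0 ± 1.85 FPKM against 17.1 ± 1.12 FPKM. The second estrogen receptor ESR2 stayed under 0.1 FPKM in every library.

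Of the surface and secreted antigens, FOLR1 and MSLN averaged over 5 FPKM, MUC1 and WFDC2 were lower, and MUC16 was near the floor. MSLN (ENSG00000102854; chromosome 16, 760762 to 768865, plus strand) encodes mesothelin, a membrane-anchored glycoprotein of mesothelial cells that is raised in many ovarian carcinomas and binds MUC16. It had 10.3, 12.4 and 6.70 FPKM in TIPE2 1, 2 and 3, against 23.8, 12.7 and 14.7 FPKM in Vector 1, 2 and 3. All TIPE2 libraries lay below all Vector libraries, although TIPE2 2 and Vector 2 were close to each other. The mean was 9.80 ± 2.89 FPKM in TIPE2 cells, against 17.1 ± 5.90 FPKM in Vector cells (SD, n = 3 each), a ratio of 0.574. The log2 difference was -0.73 with a standard error of 0.27 and an interval of -1.35 to -0.12 (limma, unadjusted p = 0.0251, adjusted p = 0.779), and a two-sided exact permutation test gave p = 0.1, the least that 3 against 3 libraries can give. The difference was -0.51 without TIPE2 3 and -0.48 without Vector 1, the 2 libraries at the ends of the range, and -0.91 without TIPE2 2 or Vector 2, with no adjusted p under 0.05. Its spread over the 6 libraries, 3.55-fold, exceeded that of 98.1% of the genes tested on the log2(FPKM + 1) scale. Of 6 mesothelial genes, ITLN1 was at 0 in all libraries and the 6 summed to between 5.43 and 9.53 FPKM in the TIPE2 libraries, against 5.07 to 7.96 FPKM in the Vector libraries. UPK3B held most of this sum, at 6.40 ± 2.43 FPKM in TIPE2 cells, against 4.93 ± 1.12 FPKM in Vector cells, and the part of these genes in the MSLN values was not tested.

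FOLR1 (ENSG00000110195; chromosome 11, 72189558 to 72196323, plus strand) encodes the folate receptor alpha, a membrane-anchored protein that takes up folate and is a target of antibody-drug conjugates. It had 27.1, 28.7 and 13.6 FPKM in TIPE2 1, 2 and 3, against 32.4, 22.2 and 16.5 FPKM in Vector 1, 2 and 3. TIPE2 3 and Vector 3 were the 2 lowest libraries, and the groups overlapped. The log2 difference was -0.050 (standard error 0.32, interval -0.80 to 0.70, limma, adjusted p = 0.971), with the opposite sign under quantile normalization (0.027).

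Of 16 other genes of folate uptake and use, 13 were tested, 3 with a higher and 10 with a lower mean in TIPE2 cells. With limma 0 passed, and 0 had an unadjusted p under 0.05, against 5.99% of all genes tested. The median log2 difference of the 13 was -0.076. The hydrolase GGH, which trims folate polyglutamates, had 41.0 ± 1.54 FPKM in TIPE2 cells, against 47.2 ± 11.5 FPKM in Vector cells. The ligase FPGS, which adds them, had 33.0 ± 1.91 FPKM against 33.2 ± 0.581 FPKM. The mitochondrial serine hydroxymethyltransferase SHMT2 had 29.9 ± 6.74 FPKM against 36.7 ± 3.66 FPKM, and the purine enzyme ATIC had 22.3 ± 2.92 FPKM against 27.2 ± 1.87 FPKM. The related receptor FOLR2 had 0 fragments in the TIPE2 libraries, against 1, 3 and 0 in the Vector libraries. Its relative FOLR3, also below the filter on low values, had 24, 19 and 18 fragments against 25, 23 and 22.

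MUC1 (ENSG00000185499; chromosome 1, 155185824 to 155192916, minus strand), a transmembrane mucin of glandular epithelia, had 3.86, 3.15 and 1.12 FPKM in TIPE2 1, 2 and 3, against 3.65, 2.59 and 1.60 FPKM in Vector 1, 2 and 3. As for FOLR1, the 2 lowest libraries were TIPE2 3 and Vector 3, and the groups overlapped. The log2 difference was -0.0064 (standard error 0.33, interval -0.78 to 0.77, limma, adjusted p = 0.996). Of the 3 promoters printed above, only that of MUC1 held a TATA box.

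WFDC2 (ENSG00000101443; chromosome 20, 45469706 to 45481532, plus strand) encodes a small secreted protein with whey acidic protein domains that is measured in serum in ovarian cancer. It had 2.34, 2.86 and 0.781 FPKM in TIPE2 1, 2 and 3, against 2.70, 0.812 and 1.20 FPKM in Vector 1, 2 and 3. The fragments behind these were 62, 69 and 18 against 59, 20 and 27. TIPE2 1, TIPE2 2 and Vector 1 were high and the other 3 libraries low, so the groups overlapped. The log2 difference was 0.21 (standard error 0.35, interval -0.60 to 1.02, limma, adjusted p = 0.895). Of 7 relatives with such domains found in the files, SLPI, a protease inhibitor of mucosal secretions, was the abundant one. It had 650, 676 and 215 FPKM in TIPE2 1, 2 and 3, against 944, 413 and 232 FPKM in Vector 1, 2 and 3. PI3, the elastase inhibitor elafin, had 3.60 ± 0.238 FPKM in TIPE2 cells, against 10.8 ± 9.16 FPKM in Vector cells, where Vector 1 alone had 21.1 FPKM (limma, adjusted p = 0.834).

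MUC16 (ENSG00000181143; chromosome 19, 8848844 to 8981342, minus strand), the giant mucin that carries the serum antigen most used in ovarian cancer, was at the limit of detection. It had 5, 1 and 2 fragments in the TIPE2 libraries, against 2, 5 and 2 in the Vector libraries, spread over 43830 exon bases. The highest library had 0.00640 FPKM, and 3 fragments correspond to at most 0.00433 FPKM. The ratio of summed rates was 0.832 (exact 95% interval 0.279 to 2.43).

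**Figure D3:**
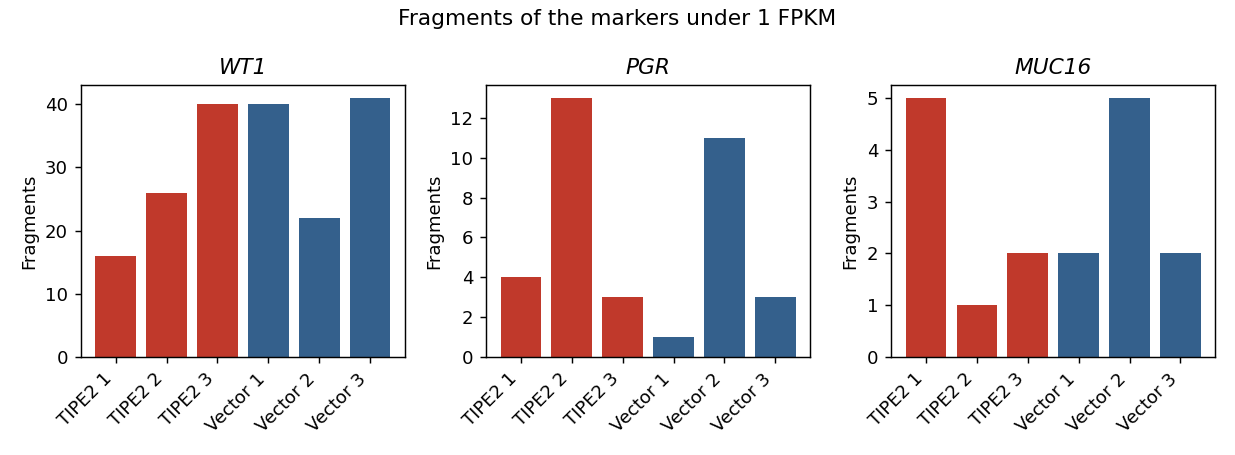
Fragments per library for WT1, PGR and MUC16, the 3 markers with a mean under 1 FPKM, TIPE2 libraries left and Vector libraries right; each panel has its own axis from 0. WT1 has between 16 and 41 fragments per library, PGR between 1 and 13 and MUC16 between 1 and 5.

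Of 15 other mucins, 0 reached a mean of 1 FPKM, 13 had a mean under 0.1 FPKM and 5 were listed at 0 in all libraries. MUC20 had 0.491 ± 0.173 FPKM in TIPE2 cells, against 0.406 ± 0.0516 FPKM in Vector cells, and the gastric mucin MUC5AC had 0.371 ± 0.223 FPKM against 0.204 ± 0.0470 FPKM. Of 16 genes of mucin O-glycosylation and galectins, 12 were tested, 6 means being higher and 6 lower in TIPE2 cells. With limma 0 passed, and 1 had an unadjusted p under 0.05, against 5.99% of all genes tested. The galectin LGALS1 had 617 ± 178 FPKM in TIPE2 cells, against 707 ± 122 FPKM in Vector cells. The galectin LGALS3, which binds mucin glycans, had 72.1 ± 4.66 FPKM in TIPE2 cells, against 74.3 ± 9.43 FPKM in Vector cells, and the transferase GALNT1, which starts O-glycans, had 28.0 ± 0.733 FPKM against 28.6 ± 3.13 FPKM (SD, n = 3 each). Its relative GALNT2 had 21.2 ± 1.53 FPKM against 18.3 ± 1.45 FPKM.

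Genes of Mullerian duct development other than the markers were present in part. Of 15 listed, 5 were tested, and 7 had a mean under 0.1 FPKM, among them PAX2, AMHR2 and WNT9B. WNT7A, a ligand needed for patterning of the female tract, had 27.0 ± 3.46 FPKM in TIPE2 cells, against 25.3 ± 6.88 FPKM in Vector cells. LHX1, a LIM homeobox factor of the early duct, had 8.65 ± 0.457 FPKM against 10.8 ± 4.95 FPKM. HOXA13, a factor of the lower tract, had 3.90 ± 0.657 FPKM against 2.54 ± 0.133 FPKM without overlap of the groups (limma, adjusted p = 0.662). None of the 5 passed with limma, and 1 had an unadjusted p under 0.05, against 5.99% of all genes tested. Of the PAX relatives of PAX8, only PAX9 had a mean above 0.1 FPKM, and the SOX17 relatives SOX18 and SOX7 had 2.81 ± 1.31 and 2.20 ± 0.341 FPKM in TIPE2 cells, against 2.17 ± 0.177 and 2.19 ± 0.434 FPKM in Vector cells.

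Markers of the clear cell histotype differed in level. Of 8 genes listed for clear cell carcinoma, 5 were tested, and TFPI2, ANXA4 and RIPK4 stood above 20 FPKM in every library, while NAPSA, a marker used in pathology, stayed under 0.2 FPKM. TFPI2, an inhibitor of serine proteases, had 44.1 ± 4.03 FPKM in TIPE2 cells, against 47.8 ± 13.0 FPKM in Vector cells, and the annexin ANXA4 had 40.7 ± 8.79 FPKM against 37.4 ± 12.4 FPKM. RIPK4, a receptor-interacting kinase, had 41.3 ± 2.14 FPKM in TIPE2 cells, against 27.5 ± 1.56 FPKM in Vector cells without overlap (limma, log2 difference 0.57, adjusted p = 0.343). With limma 0 of the 5 passed, and 1 had an unadjusted p under 0.05, against 5.99% of all genes tested. Of 10 mucinous and intestinal markers, 1 was tested, and 7 had a mean under 0.1 FPKM, of which 2 were at 0 in all libraries.

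Of 22 other markers of ovarian carcinoma, 14 were tested and 0 passed with limma. At an unadjusted p under 0.05 there were 2, MECOM and CLDN3, against 5.99% of all genes tested. Means were higher in TIPE2 cells for 11 and lower for 3, with a median log2 difference of 0.19. The groups did not overlap for 0 of the 14, against 11.5% of all genes tested. CD24, a glycosylated surface protein, had 156 ± 31.2 FPKM in TIPE2 cells, against 140 ± 40.6 FPKM in Vector cells. The protease inhibitor SPINT2 had 68.0 ± 9.58 FPKM against 77.9 ± 18.3 FPKM, and SPP1, which encodes osteopontin, had 52.0 ± 10.2 FPKM against 46.2 ± 14.3 FPKM. The transcription factor gene MECOM had 51.4 ± 9.33 FPKM against 37.8 ± 6.58 FPKM, and the tight junction gene CLDN3 had 8.60 ± 3.17 FPKM against 4.77 ± 1.68 FPKM. The kallikreins KLK5, KLK6, KLK7 and KLK8 and the checkpoint ligand gene VTCN1 were listed at 0 in all 6 libraries, and the phosphate transporter SLC34A2 had a value above 0 in 1 library.

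Over all 6 libraries, whichever their group, the span from lowest to highest was 3.66-fold for WFDC2, 3.45-fold for MUC1, 2.38-fold for FOLR1 and 2.30-fold for ESR1. TIPE2 3 was the lowest of the 6 libraries for 4 of the 7 markers tested, MSLN, FOLR1, MUC1 and WFDC2, against 12.3% of all genes tested. Vector 1 was the highest for 3 of the 7, against 29.9% of all genes. The 2 libraries numbered 3 were the lowest pair for FOLR1 and MUC1 and the highest pair for PAX8, where 9.88% and 11.0% of all genes tested had these orders. Among the 14 other ovarian carcinoma markers tested, both were the lowest pair for 9. This way of counting was chosen after the values were seen, and it carries no test. The epithelial surface gene EPCAM is 1 of these 9, with 12.5, 11.9 and 5.55 FPKM in TIPE2 1, 2 and 3, against 7.21, 8.08 and 5.88 FPKM in Vector 1, 2 and 3. TIPE2 3 and Vector 3 were lowest for the cadherin CDH1 too, with 1.83, 1.63 and 0.427 FPKM against 0.676, 0.636 and 0.238 FPKM. EPCAM and CDH1 are on the epithelial list, whose other genes, KRT7, KRT8, KRT18, KRT19 and ERBB2, did not have this order. KRT8 was highest of the TIPE2 libraries in TIPE2 3, at 237 FPKM. KRT19 was highest of all 6 libraries in Vector 3, at 212 FPKM, and ERBB2 was lowest in Vector 1, at 383 FPKM. The part of these library differences in the group values was not tested.

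**Figure D4:**
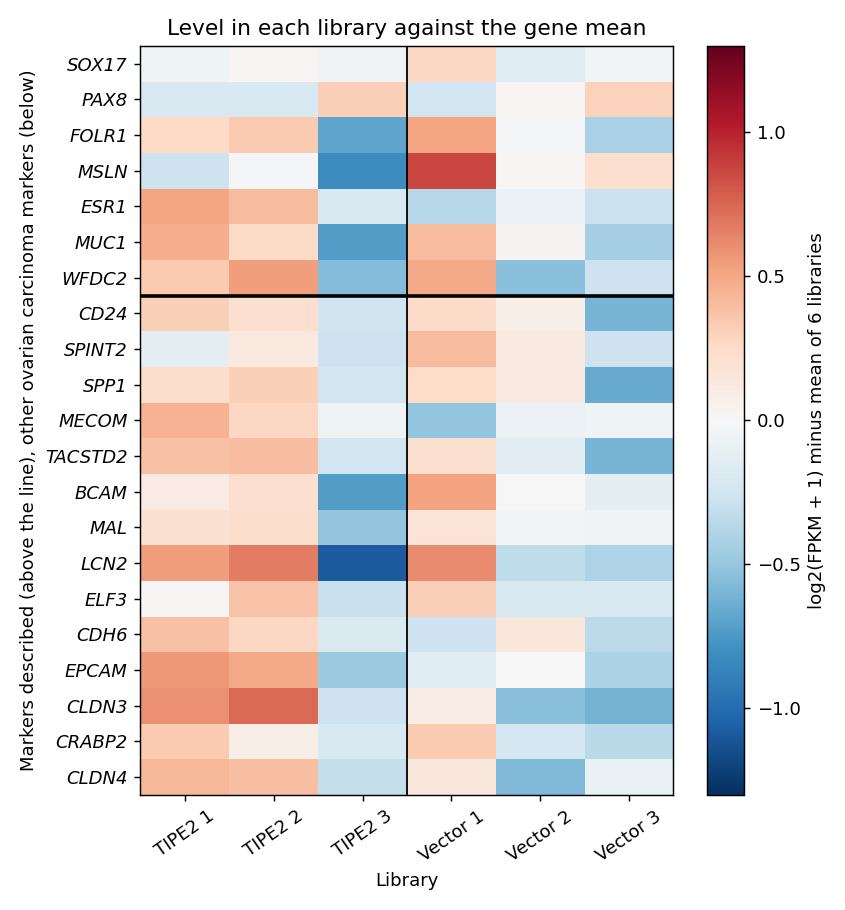
Level of each gene in each library as log2(FPKM + 1) minus the mean of its 6 libraries, TIPE2 libraries left of the vertical line and Vector libraries right of it; the 7 tested markers stand above the horizontal line and the 14 other ovarian carcinoma markers below it. FOLR1, MUC1 and 9 of the 14 other genes are lowest in TIPE2 3 and Vector 3, whereas PAX8 is highest there.

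For the 4 markers that averaged 5 FPKM or more, the genes with the most similar profile over the 6 libraries were taken from all genes tested, as a description. PAX8 was closest to TCOF1 (Pearson r = 0.998 over 6 libraries), which had 5.48, 5.64 and 7.46 FPKM in TIPE2 1, 2 and 3, against 5.42, 6.36 and 7.54 FPKM in Vector 1, 2 and 3, and next to NAA50 (r = 0.996). FOLR1 was closest to FAAH (r = 0.994) and SPPL2B (r = 0.992), MSLN to PRXL2A (r = 0.994) and the antisense gene AP000697.1 (r = 0.980), and SOX17 to DSN1 (r = 0.989) and the lincRNA AC016205.1 (r = 0.988). These were picked as the highest of 12538 genes, and the libraries are the same 6 for every pair.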

How the data were processed

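Per the file headers, each library has 1 table, which the authors deposited in FPKM. CASAVA 1.7, Bowtie and mm8, a mouse build, stand in the submitters' processing notes, whereas all 58735 identifiers are human and are in GENCODE 29 (GRCh38), whose symbols and coordinates are used; for the build aligned to, the counter and any use of strand, the answer is not given in the sources used here. FPKM times merged exon length and a library denominator came out at whole fragments for 100% of values above 0 (tolerance 0.01); the denominators equal median-of-ratios size factors times the geometric mean depth, so the deposited values are already scaled between libraries. limma 3.58.1 (R 4.3.3, trend and robust) was fitted to log2(FPKM + 1) for the 12538 genes averaging 1 FPKM or more, adjusted over all of them by Benjamini-Hochberg at 0.05. Python 3.11.15 and scipy 1.17.1 gave exact permutation tests and exact 95% intervals. With no molecular identifiers, fragments can be copies of 1 molecule, so intervals and the floor of 3 fragments cover counting error only. The steps were tested on 10 simulated data sets, in each of which 200 genes averaging at least 5 FPKM were changed. On average 72% of 2-fold and 96% of 4-fold changes were recovered, with 8.1 false calls. Genes of lower level were not changed, so recovery at the level of ESR1, MUC1 and WFDC2 was not tested.

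The 10 markers and the gene lists were chosen with earlier results of these data known. Named were all 10 markers, up to 4 genes of highest mean level per list and the 2 genes most similar to each marker of at least 5 FPKM. The other genes named (CLDN3, PDZK1, IGFBP4, GREB1, KRT18, EPCAM, CDH1, NAPSA, ESR2, PAX9, FOLR2, FOLR3 and those at or near 0) were chosen after their values were seen. Some genes of the lists are not reported here.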

Additional observations from a re-analysis of the deposited data

How the results depend on the processing

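The count of markers past the threshold was 0 under every alternative run: a replicate block, pseudocount 0.1, no filter, a minimum mean of 5 FPKM, quantile normalization, limma without trend and robust settings, limma-voom on recovered fragments, each library left out, and both libraries numbered 3 left out (chosen after seeing the data). The count over all genes, 3, was 1 with the replicate block, 1 with no filter and 1 with a minimum of 5 FPKM, and lay between 1 and 11 (11 without TIPE2 3) with 1 library left out. Deviations from the group means correlated at -0.23, 0.15 and 0.19 between libraries numbered 1, 2 and 3; as not every pair exceeded 0.1, the numbers were not taken to pair the libraries, and not every library correlated best with its own number. The replicate block lowered the standard error of FOLR1 to 0.17, against 0.32 without it, and of MUC1 to 0.15, against 0.33, with no marker called. The count of markers without overlap, 1, lay between 1 and 3 with 1 library left out: ESR1 (higher) was added without TIPE2 3 or Vector 2, WT1 (lower) without Vector 2 and MUC16 (lower) without TIPE2 1. It was 2 without both libraries numbered 3. Log2 differences of 5 markers changed sign, and the cause was not tested. With quantile normalization PAX8 had 0.0027, FOLR1 0.027 and SOX17 0.026; without both libraries numbered 3, FOLR1 had 0.056 and MUC1 0.14. With 1 library left out PAX8 lay between -0.22 and 0.081, WFDC2 between -0.0082 and 0.55, FOLR1 between -0.27 and 0.28, MUC1 between -0.24 and 0.36 and SOX17 between -0.14 and 0.072. MSLN stayed lower and ESR1 higher in TIPE2 cells under all of these in which they were fitted, without passing. Depth limits WT1, PGR and MUC16, whose group sums were 8 to 103 fragments.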
